A study of Rattus norvegicus with 4 samples.

Results

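The cytosolic ribosomal protein genes encode the protein parts of the ribosomes that translate nuclear mRNAs. They were taken by symbol: Rpl or Rps followed by a digit, Rplp or Rpsa, without the Rps6k kinases and without pseudogenes. This gave 42 of the 4736 genes measured by a probe set with 1 gene symbol, read by 61 of 7006 such probe sets. Of these, 30 belong to the large subunit and 12 to the small subunit. The array was the Affymetrix Rat Genome U34, which reads each transcript by a probe set of short oligonucleotides.

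Rats were put on a diet lacking vitamin A at 20 days of age, and after 9 weeks were either left deficient (VAD, 0 h) or given retinol, the alcohol form of the vitamin, for 4, 8 or 24 h. Whole testis was profiled, with 1 deposited array per group and 4 in all. All 4 groups, the VAD group included, share the deficient diet, and the labels name neither strain, dose nor number of animals. The deposited values are linear ratios to a reference that is not stated, so a level per gene is not known. The VAD array was unlike the others in these ratios. On it 64.2% of all genes lay within 10% of 1, against 31.0%, 26.6% and 24.9% at 4, 8 and 24 h. Whether the reference was made from VAD values is not stated. Each comparison below sets 1 array against another, so it has no replicate check and no p-value. The 3 comparisons with VAD share that array.

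A ribosome consists of a small subunit, which holds the mRNA, and a large subunit, which joins amino acids and carries a stalk that recruits the elongation factors. Its proteins are made in matched amounts, and their mRNAs are among the most abundant of the cell. Most of these mRNAs begin with a pyrimidine tract at the 5′ end (the TOP element), through which their translation follows growth signals by way of the mTOR kinase. In the testis, spermatogonia and early spermatocytes are cells that grow and divide, while the Sertoli cells of an adult do not normally divide.

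The sequence around the start of each gene shows what most members have in common beside their symbol. RefSeq's promoter table for assembly GRCr8 held 38 of the 42 genes. The stretches below run from 50 bases before to 50 bases after the annotated start, 5′ to 3′, and capitals mark the longest run of C or T within 30 bases of that start. The first 4 are genes that were lower after retinol, Rpl3 and Rpl3l are a gene and its paralog that lay on opposite sides of the VAD array, and Rplp1l3 was the member highest above VAD.
Rpl22 (chr5:168117911-168118010, plus strand): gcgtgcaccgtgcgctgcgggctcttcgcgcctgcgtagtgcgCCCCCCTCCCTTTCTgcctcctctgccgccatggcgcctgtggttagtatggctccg
Rps23 (chr2:23814467-23814566, plus strand): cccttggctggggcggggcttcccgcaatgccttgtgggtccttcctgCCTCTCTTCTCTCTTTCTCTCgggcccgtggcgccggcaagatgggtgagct
Rpl27a (chr1:172974523-172974622, plus strand): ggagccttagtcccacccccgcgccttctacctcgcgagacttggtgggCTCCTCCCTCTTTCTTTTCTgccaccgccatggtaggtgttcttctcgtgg
Rpl19 (chr10:83519014-83519113, plus strand): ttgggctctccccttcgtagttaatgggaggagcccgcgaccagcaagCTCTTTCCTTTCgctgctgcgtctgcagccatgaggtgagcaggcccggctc
Rpl3 (chr7:113507941-113508040, minus strand): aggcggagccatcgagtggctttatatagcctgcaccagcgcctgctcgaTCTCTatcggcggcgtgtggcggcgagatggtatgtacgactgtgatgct
Rpl3l (chr10:14258396-14258495, plus strand): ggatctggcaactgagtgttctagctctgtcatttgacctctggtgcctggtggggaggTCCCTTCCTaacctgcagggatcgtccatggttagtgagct
Rplp1l3 (chr3:163216645-163216744, plus strand): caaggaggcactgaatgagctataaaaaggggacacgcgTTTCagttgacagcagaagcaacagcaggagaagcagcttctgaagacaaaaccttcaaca

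In Rpl22, Rps23, Rpl27a and Rpl19 the run is 15, 21, 20 and 12 bases long and spans the annotated start. In Rpl3 it is 5 bases, in Rpl3l 9 bases lying after the start, and in Rplp1l3 4 bases. A run of at least 8 C or T on the transcribed strand lay within 30 bases of the start in 29 of the 38 genes (76.3%). The share was 22.6% of the 3879 genes of the array with a promoter entry and 23.2% of all 27457 promoters. The letters CTTTCC in the same window were found in 12 of 38 members (31.6%), 3.04% of the genes of the array and 2.68% of all promoters. In Rps16 the longest run lies 14 to 25 bases downstream of the annotated start, and no start was measured here.

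The whole window (250 bases before to 50 after the start) was also searched on both strands. The ETS-type letters CCGGAAG were found in 9 of 38 members (23.7%), 12.3% of the genes of the array and 9.22% of all promoters. For AAGATGGC, the core of YY1 sites around a start codon, it was 4 members (10.5%), 4.02% and 3.44%. The nuclear receptor half-site AGGTCA was in 7 members (18.4%), 13.5% and 15.7%. A direct repeat of AGGTCA with 5 bases between the copies, a form bound by retinoic acid receptors, was in 0 of 38, 0.0% and 0.011%. Only the exact letters were searched. With 3 hits in all 27457 promoters they are too rare for a search of 38 genes to tell anything. Such matches are letters in a window, not known sites. The 29 genes with a run of 8 or more had a median mean change over the 3 retinol arrays of -0.56, and the 9 without one also of -0.56.

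Nearly all members had lower ratios after retinol. Over the 42 genes the median deposited ratio was 1.05 on the VAD array (0.808 to 1.37), 0.812 at 4 h (0.458 to 2.81), 0.708 at 8 h (0.423 to 2.80) and 0.717 at 24 h (0.50 to 4.61). The VAD array was the highest of the 4 for 39 of the 42 genes, and 45.8% of all genes had the VAD array above all 3 retinol arrays. The lowest array was 8 h for 24 genes, 24 h for 16 and VAD for 2, and 4 h was the lowest for none. The largest group of genes, 20, had the order 8 h, 24 h, 4 h, VAD from low to high, and 14 had the order 24 h, 8 h, 4 h, VAD.

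**Figure D1:**
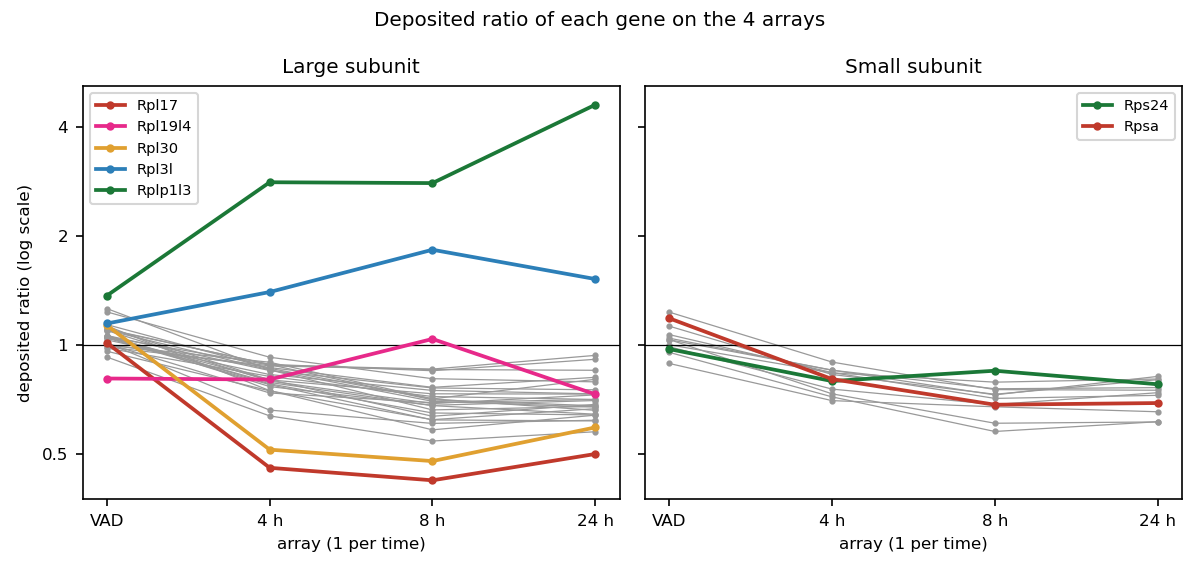
Deposited ratio (vertical axis, log scale, no unit) of each ribosomal protein gene on the VAD, 4 h, 8 h and 24 h arrays, with 1 array per time and 1 line per gene, large subunit on the left and small subunit on the right. Most lines run together below 1 after retinol, Rpl17 and Rpl30 lie below the bundle, and Rplp1l3 (1.37 to 4.61) and Rpl3l lie above it.

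On the log2 scale the median differences from VAD at 4, 8 and 24 h were -0.39, -0.62 and -0.57, or 1.31-fold, 1.54-fold and 1.49-fold lower. The median over all 4736 genes was -0.09, -0.12 and -0.12, so relative to it the ribosomal genes stood at -0.30, -0.50 and -0.46. Lower than VAD were 40, 39 and 40 of the 42 genes, where the share of all genes was 61.1%, 61.5% and 59.9%. At least 1.5-fold lower were 4, 24 and 21 genes, where the share of all genes was 6.63%, 12.3% and 14.1%. Few passed 2-fold: 2, 2 and 1 genes were lower by that much (1.25%, 1.88% and 2.64% of all genes) and 1 gene was higher at each time (1.41%, 2.83% and 3.27%). At least 1.5-fold higher were 1, 2 and 1 genes (6.17%, 8.53% and 8.99% of all genes).

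The members also lay closer together than all genes did. Their interquartile range was 0.17, 0.28 and 0.35 at the 3 times, against 0.46, 0.56 and 0.59 over all genes. The distribution of the 42 genes thus forms a narrow peak on the low side of a broader one, with a few genes apart on either side. A narrow range was not particular to them. It was 0.18, 0.40 and 0.39 for 14 mitochondrial ribosomal protein genes and 0.21, 0.38 and 0.46 for 17 initiation factor genes. Other lists were wider, such as 11 Sertoli cell markers at 0.69, 1.01 and 1.05.

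**Figure D2:**
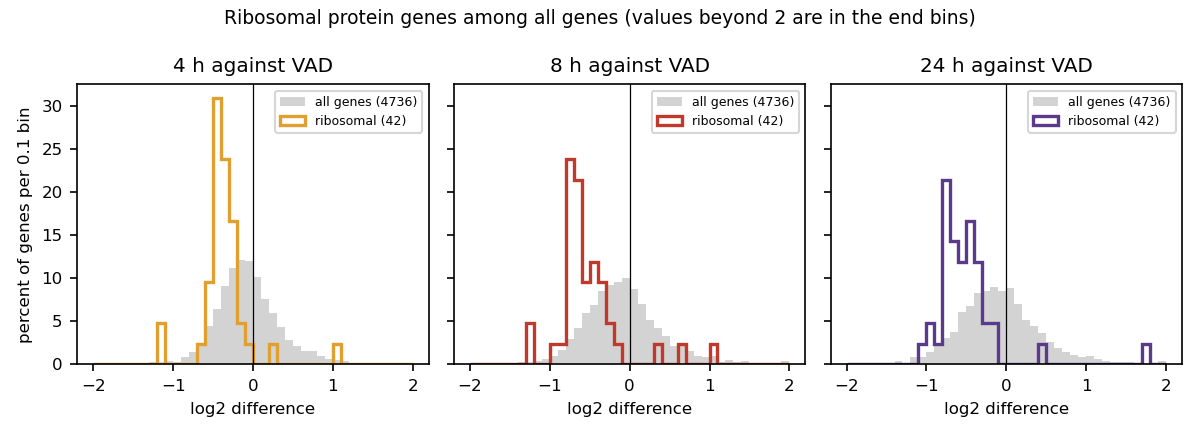
Log2 difference from VAD (horizontal axis, bins of 0.1) against the percent of genes per bin, for all 4736 genes (grey) and the 42 ribosomal protein genes (outline), at 4, 8 and 24 h. The outline peaks to the left of the grey distribution at each time, with medians of -0.39, -0.62 and -0.57.

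The sign of the median against VAD depends on the scaling at 4 h and 24 h. The 9 hybridisation spike-in probe sets (BioB, BioC, BioDn and CreX) are meant for RNA added in fixed amounts, which was not checked here. They were all lower at each time, with medians of -0.55, -0.58 and -0.71. Scaled on them, the medians of the members would be 0.16, -0.0353 and 0.14, with 6, 24 and 10 of the 42 genes lower than VAD and 36, 18 and 32 higher. The same shift applies to every gene, and it would leave 8.02%, 12.5% and 8.68% of all genes lower. After centring of each array on all genes 39, 39 and 40 of the 42 genes would be lower. By construction, this centring on the median leaves as many of all genes below VAD as above it at each time. The place of the set among other genes is the same under any such scaling. The log2 difference from VAD was larger at the 5′ than at the 3′ control probe sets of beta-actin, GAPDH and hexokinase. The excess was 0.39 to 1.05 at 4 h, 0.90 to 1.27 at 8 h and 0.80 to 1.30 at 24 h. On the VAD array itself the 5′ ratios were 0.597, 0.835 and 0.715, and the 3′ ratios 0.979, 0.978 and 0.982. The part of this end difference in the result was not tested.

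By the kind of sequence a probe set was designed on, the members differed less than other genes did. The 26 probe sets from expressed sequence tags had medians of -0.38, -0.58 and -0.57, where all 2449 such probe sets had -0.19, -0.26 and -0.28. The 14 from coding sequences had -0.34, -0.50 and -0.43, while all 494 such probe sets had 0.06, 0.09 and 0.09. The ribosomal genes therefore lay below other genes read from the same kind of sequence in either kind.

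The step from 4 h to 8 h does not involve the VAD array. The 8 h array was lower than the 4 h array for 39 of the 42 genes, where 55.7% of all genes were lower. The median difference was -0.18 (all genes -0.03), and it was -0.19 with scaling on the spike-ins and -0.15 after centring. No member reached 1.5-fold at this step, at which 3.4% of all genes were lower and 3.61% higher by that much. The largest differences were those of Rpl35 (-0.37), Rpl22 (-0.36), Rpl5 (-0.34), Rpl24 (-0.34), Rpl13a (-0.32) and Rpl18 (-0.32). The 3 genes that were higher at 8 h than at 4 h were Rpl3l (0.39), Rpl19l4 (0.37) and Rps24 (0.09).

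From 8 h to 24 h the genes split. The median difference was 0.03, with 17 of 42 lower (49.8% of all genes) and 25 higher, and Rplp1l3 (0.72) was the 1 gene at least 1.5-fold higher (3.08% of all genes), and none was lower by that much (3.15%). Scaled on the spike-ins 2 would be lower and 40 higher, with a median of 0.20, where 21.7% of all genes would be lower. Rpl30 (0.31), Rpl17 (0.24), Rpl5 (0.18) and Rps3 (0.17) followed Rplp1l3 on the positive side, and Rpl19l4 (-0.51) and Rpl3l (-0.27) were the most negative. Against 4 h, the 24 h array was lower for 36 of 42 genes (53.8% of all genes) with a median of -0.15. At least 1.5-fold, 1 gene was higher (Rplp1l3, 0.71; 5.24% of all genes) and none lower (5.43%). With scaling on the spike-ins the split against 4 h was 22 lower to 20 higher, where 34.1% of all genes would be lower.

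Large subunit genes lay at a median of -0.40, -0.63 and -0.60, with 28, 27 and 28 of 30 below VAD. The small subunit genes had -0.37, -0.56 and -0.47, with 12 of 12 below VAD at each time. Of all genes 61.1%, 61.5% and 59.9% were below it. The difference between the subunits, large minus small, was -0.03, -0.07 and -0.13. With only the probe set of highest mean ratio kept per gene its sign turned, to 0.06, 0.07 and 0.0038, so no order of the subunits can be read. Each of the first 3 values is smaller than the interquartile range within either subunit, at 0.19, 0.28 and 0.35 for the large and 0.15, 0.27 and 0.26 for the small. At least 1.5-fold lower were 4, 18 and 17 of the 30 large subunit genes and 0, 6 and 4 of the 12 small subunit genes. The share of all genes was 6.63%, 12.3% and 14.1%. Every gene that departed from the set by a 2-fold change or by its sign was named as a large subunit gene.

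**Figure D3:**
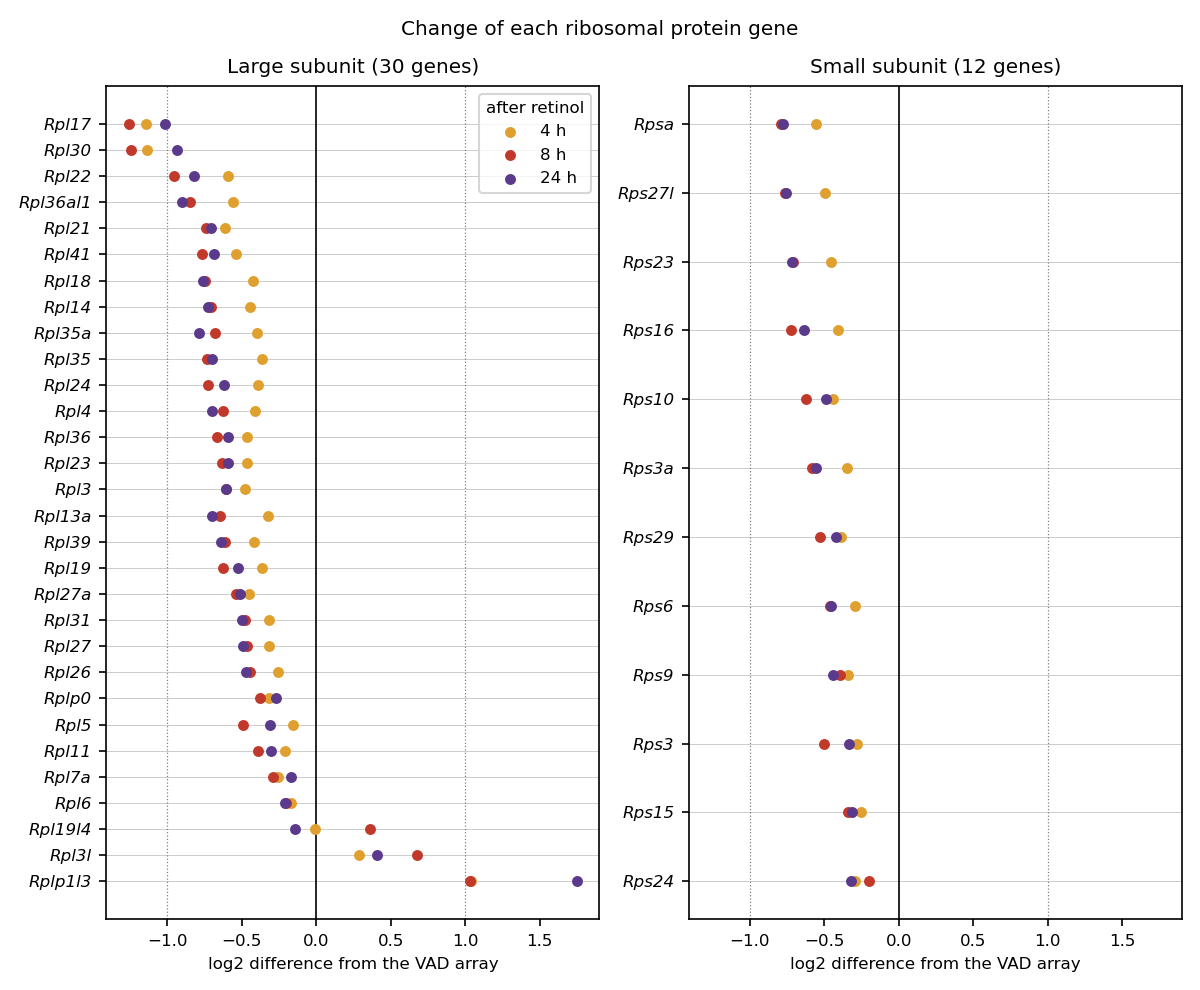
Log2 difference from VAD (horizontal axis) of each of the 30 large subunit (left) and 12 small subunit genes (right) at 4, 8 and 24 h, sorted by the mean of the 3 differences, with 1 point per array and dotted lines at a 2-fold change. All small subunit genes lie below 0, and among the large subunit genes Rpl17 and Rpl30 stand lowest and Rpl19l4, Rpl3l and Rplp1l3 highest.

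Rpl17, a protein at the exit of the tunnel through which the new chain leaves the ribosome, had ratios of 1.01 (VAD), 0.458 (4 h), 0.423 (8 h) and 0.50 (24 h). It was 2.21-fold, 2.39-fold and 2.03-fold lower than VAD (-1.15, -1.26 and -1.02), the lowest member at each time. Rpl30 had ratios of 1.13, 0.514, 0.478 and 0.592, or differences of -1.14, -1.25 and -0.94. These 2 genes were already near their lowest ratio at 4 h, with only -0.11 and -0.10 between 4 h and 8 h. Each was read by 1 probe set with 1 symbol.

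Other probe sets for these 2 genes gave smaller differences. They carry several symbols, because copies of the gene share their sequence, and so lie outside the set. For Rpl17 and its copies they were at -0.20, -0.40 and -0.23 in 1 probe set and at 0.28, 0.0061 and 0.13 in another. For Rpl30 and its copies the probe set was at -0.32, -0.48 and -0.45, near the median of the set. The 2-fold differences of these genes thus rest on 1 probe set each, and the probe sets that share copies did not show them.

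The next lowest large subunit genes were Rpl22, Rpl36al1 and Rpl21. Rpl22 had ratios of 1.13, 0.748, 0.583 and 0.640, and differences of -0.59, -0.95 and -0.82. Rpl36al1, named as a copy of Rpl36a, had ratios of 1.26, 0.854, 0.699 and 0.674 and differences of -0.56, -0.85 and -0.90. Its VAD ratio was the second highest of all members. Rpl21, read by 4 probe sets, had ratios of 1.01, 0.661, 0.607 and 0.620 and differences of -0.62, -0.74 and -0.71. Its probe sets ranged from -0.99 to -0.20 at 4 h, from -1.11 to -0.29 at 8 h and from -1.06 to -0.36 at 24 h.

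Rpl41, the smallest ribosomal protein, was at -0.54, -0.77 and -0.68, and Rpl18 at -0.43, -0.75 and -0.76. The other large subunit genes below VAD by at least 1.5-fold at 8 h and 24 h were Rpl14, Rpl35a, Rpl35, Rpl24, Rpl4, Rpl36, Rpl23, Rpl3, Rpl13a and Rpl39. Their differences at 8 h lay between -0.73 (Rpl35) and -0.61 (Rpl3). Rpl19 was at -0.36, -0.63 and -0.53, and Rpl27a at -0.45, -0.54 and -0.51. Rpl31, Rpl27 and Rpl26 were closer to VAD, at -0.48, -0.46 and -0.44 at 8 h.

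Rpl5 and Rpl11 form, with 5S ribosomal RNA, a particle that also binds the p53 regulator Mdm2. Rpl5 had ratios of 0.999, 0.896, 0.710 and 0.804, and differences of -0.16, -0.49 and -0.31. Rpl11 had ratios of 1.003, 0.866, 0.764 and 0.814, and differences of -0.21, -0.39 and -0.30. These genes were thus above the median of the set at each time, and their lowest array was 8 h in either case. Rpl7a (-0.26, -0.29 and -0.17) and Rpl6 (-0.17, -0.21 and -0.21) were, by the mean of the 3 differences, the members nearest to VAD among those below it at all 3 times.

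Of the stalk genes, Rplp0, which encodes the base of the stalk, had ratios of 1.10, 0.884, 0.849 and 0.913 and differences of -0.32, -0.38 and -0.27. The probe set shared by Rplp2, an acidic protein of the stalk tip, and its copies had differences of -0.62, -0.87 and -0.72. Rplp1l3, named as a copy of the other tip protein gene Rplp1, went the opposite way. Its ratios were 1.37, 2.81, 2.80 and 4.61, so it was 2.06-fold, 2.04-fold and 3.36-fold higher than VAD (1.04, 1.03 and 1.75). It was read by 1 probe set, had the highest VAD ratio of all members, and lay at the percentiles 98.8, 97.5 and 99.6 of all genes. No probe set named Rplp1 alone is among the members.

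Rpl3l encodes a form of Rpl3 known from heart and skeletal muscle, where it takes the place of Rpl3. Its ratios were 1.15, 1.40, 1.83 and 1.52, and its differences 0.29, 0.68 and 0.41. Its 2 probe sets, from 1 sequence, were each higher than VAD at each time, at 0.24 and 0.34, at 0.53 and 0.83, and at 0.37 and 0.45. Rpl3, which forms part of the surroundings of the peptidyl transferase centre, had ratios of 1.12, 0.801, 0.733 and 0.732 and differences of -0.48, -0.61 and -0.61. The 2 genes therefore lay on opposite sides of VAD at each time, and their ratios on the VAD array itself were 1.15 and 1.12.

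Rpl19l4, named as a copy of Rpl19, had ratios of 0.808, 0.803, 1.04 and 0.731. It was the lowest member on the VAD array, and its differences were -0.009, 0.36 and -0.14. The symbols that end in l with or without a digit were Rplp1l3, Rpl3l, Rpl19l4, Rpl36al1 and Rps27l, and 3 of these 5 were the only members not below VAD at all 3 times. The other 37 genes were all below VAD at 4, 8 and 24 h, as were 45.8% of all genes. Their medians were -0.39, -0.62 and -0.59. At the step from 4 h to 8 h 36 of the 37 were lower, all but Rps24, where 55.7% of all genes were lower. Names of copies follow the platform annotation, and a probe set for a copy can also read the parent gene.

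Among the small subunit genes Rpsa, also known as the laminin receptor, was the lowest. Its ratios were 1.18, 0.805, 0.684 and 0.691 and its differences -0.56, -0.79 and -0.78. Its 2 probe sets were at -0.95 and -0.64 at 8 h. Rps27l, which in other species is known as a p53 target and relative of Rps27, had ratios of 1.04, 0.733, 0.608 and 0.613 and differences of -0.50, -0.77 and -0.76. Rps23, which lies at the decoding centre, had ratios of 1.23, 0.897, 0.753 and 0.750 and differences of -0.46, -0.71 and -0.72. Rps16 (-0.41, -0.73 and -0.64) and Rps10 (-0.44, -0.62 and -0.49) followed, and all 5 had their highest ratio on the VAD array.

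Rps6, the substrate of the S6 kinases in the mTOR pathway, had ratios of 1.04, 0.852, 0.757 and 0.762 and differences of -0.29, -0.46 and -0.45. Its 2 probe sets were at -0.28 and -0.65 at 8 h. Rps3 was at -0.28, -0.51 and -0.34, Rps3a at -0.35, -0.58 and -0.56, Rps9 at -0.34, -0.40 and -0.44, and Rps29 at -0.39, -0.53 and -0.42. Rps15, with 3 probe sets, was at -0.26, -0.34 and -0.31. Its probe sets ranged from -0.46 to 0.0061 at 4 h and from -0.66 to -0.08 at 8 h.

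Rps24 had ratios of 0.974, 0.795, 0.849 and 0.779 and differences of -0.29, -0.20 and -0.32, the small subunit gene nearest to VAD at 8 h. It was also the 1 small subunit gene that was higher at 8 h than at 4 h. A second probe set from the same sequence, which also names a Rps24 pseudogene, was at -0.49, -0.63 and -0.39, and 0.14 lower at 8 h than at 4 h. The departure of Rps24 from the other small subunit genes at 8 h was thus not seen in both probe sets.

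For 16 members more than 1 probe set was available. Probe sets on 1 array share its RNA, labelling and scaling, so their spread shows how well readings of a gene agree and is no error of a difference between arrays. The distance between the highest and lowest probe set of a gene had a median of 0.24 at 4 h, 0.30 at 8 h and 0.30 at 24 h, and was largest for Rpl21 (0.79, 0.82 and 0.69). Over all 1565 genes with several probe sets the medians were 0.43, 0.50 and 0.56. No member had probe sets further apart than 1. Of the 61 probe sets, 56 were below VAD at all 3 times, against 44.4% of all probe sets with 1 symbol.

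Between retinol arrays the probe sets of a gene were closer, with median distances of 0.07 from 4 h to 8 h, 0.06 from 8 h to 24 h and 0.09 from 4 h to 24 h. Over all genes with several probe sets these distances were 0.26, 0.22 and 0.32.

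**Figure D4:**
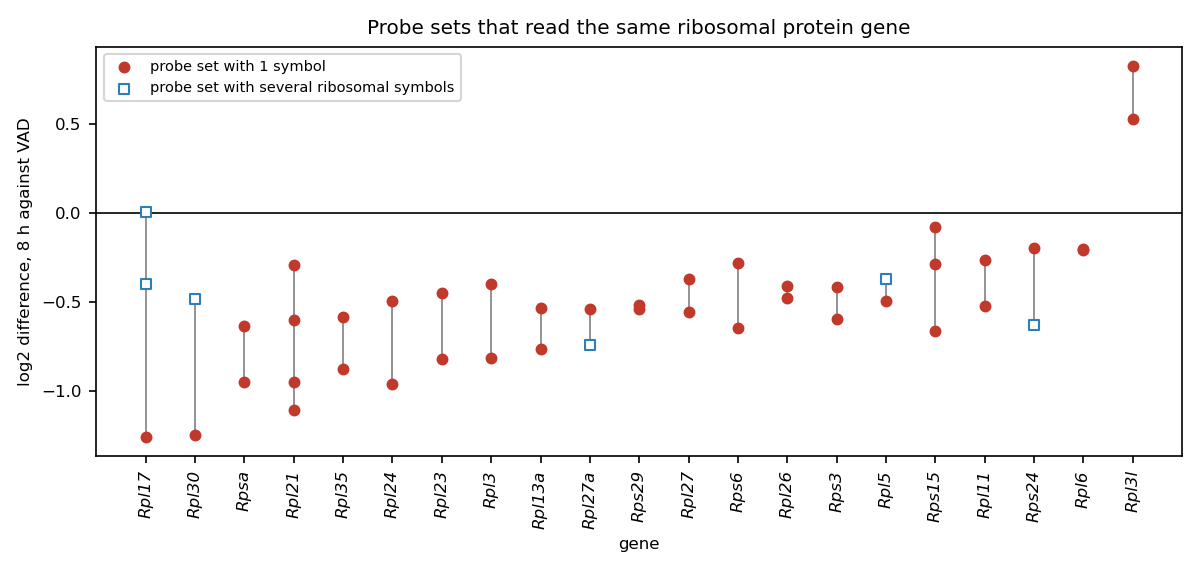
Log2 difference at 8 h against VAD (vertical axis) for members with more than 1 probe set, with filled circles for probe sets with 1 symbol, open squares for probe sets whose several symbols are ribosomal, and a line from the lowest to the highest. The circles of Rpl17 and Rpl30 lie at -1.26 and -1.25 while their squares lie at or above -0.48, and in the other genes except Rpl3l all points are below 0.

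Ribosomal proteins whose probe sets name several near-identical copies were left out by the rule and give a second reading. There were 38 such probe sets, for 30 proteins, 25 of which have no member gene. Their medians were -0.37, -0.58 and -0.48, with 37, 36 and 36 of 38 below VAD. Of all probe sets with 1 symbol 59.3%, 59.8% and 58.5% were below it. From 4 h to 8 h the median of the 38 was -0.17, with 36 of 38 lower, where 55.7% of all genes were lower. Averaged per protein, all 25 proteins without a member gene were below VAD at each time. Rps21 (-0.44, -0.86 and -0.99), Rplp2 and Rpl37 (-0.62, -0.85 and -0.87) stood low. The probe set counted under Rpl37 names copies and a pseudogene of it, but not Rpl37 itself. Rps4x (-0.17, -0.24 and -0.11), Rps7 (-0.18, -0.34 and -0.36), Rpl12 (-0.20, -0.29 and -0.23) and Rps2 (-0.27, -0.29 and -0.20) were nearer to VAD. For Rps13 the 2 probe sets disagreed at 8 h, at -0.61 and 0.22. Joined with the 42 genes, the 67 proteins and copies had subunit medians at 8 h of -0.63 (43 large) and -0.59 (24 small), and none was 2-fold lower at any time.

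Rack1, a scaffold protein of the small subunit that the symbol rule does not take, had ratios of 1.13, 0.773, 0.677 and 0.671 and differences of -0.55, -0.74 and -0.76. It thus lay among the lower members.

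The 14 mitochondrial ribosomal protein genes, which serve the separate ribosomes of mitochondria, had medians of -0.37, -0.41 and -0.46, with 12, 13 and 14 of 14 below VAD. Of all genes 61.1%, 61.5% and 59.9% were below VAD. At least 1.5-fold lower were 0, 4 and 6 of the 14 (6.63%, 12.3% and 14.1% of all genes). Mrpl38 was at -0.51, -0.82 and -0.65 (2 probe sets from -1.23 to -0.42 at 8 h), Mrpl23 at -0.56, -0.69 and -0.67, and Mrps11 at -0.55, -0.57 and -0.80. Their median from 4 h to 8 h was -0.07 and from 8 h to 24 h -0.08, beside -0.18 and 0.03 for the cytosolic set. Whether the sets differ was not tested.

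Among 17 initiation factor genes of 41 listed, the medians were -0.14, -0.23 and -0.30, with 13, 13 and 14 below VAD. The share of all genes below VAD was 61.1%, 61.5% and 59.9%. At least 1.5-fold lower were 0, 1 and 3 of the 17, a share near that of all genes (6.63%, 12.3% and 14.1%). Subunits of eIF3, which binds the small subunit, were among the lowest: Eif3b was at -0.52, -0.70 and -0.66, Eif3d at -0.42, -0.56 and -0.60 and Eif3m at -0.44, -0.47 and -0.55. The helicase gene Eif4a2 was at 0.33, 0.40 and 0.72. The list of elongation factors had 5 measured genes, of which 3 were below VAD at each time. These were Eef1g, Eef1a1 and Eef2k, which encodes the kinase of Eef2 and not a factor itself (-0.31, -0.41 and -0.35). Eef1g was at -0.29, -0.46 and -0.64 and Eef1a1, which brings aminoacyl-tRNA to the ribosome, at -0.13, -0.38 and -0.26. Eef1a2 was at 0.71, 0.74 and 0.08. Eef2, the translocase, was at 0.43, 0.52 and 0.64, with 4 probe sets that ranged from -0.52 to 1.09 at 8 h.

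Other genes whose mRNAs are known to carry a TOP element number 6 here, in part the same genes. Their medians were -0.30, -0.46 and -0.47. At each time 5 of 6 were below VAD, all but Eef2, beside 61.1%, 61.5% and 59.9% of all genes. They include Hnrnpa1 (-0.31, -0.52 and -0.59, with 4 probe sets from -0.80 to -0.06 at 8 h) and Nap1l1 (-0.54, -0.45 and -0.34). The 13 genes of ribosome assembly and ribosomal RNA synthesis had medians of -0.12, -0.13 and -0.24, near those of all genes, with 8, 8 and 10 of 13 below VAD. Dkc1, which modifies ribosomal RNA, was at -0.66, -0.96 and -0.79, and Polr1a, the largest subunit of RNA polymerase I, at -0.32, -0.77 and -0.92. The nucleolin gene Ncl was at 0.31, 0.53 and 0.54 from 2 probe sets on opposite sides of VAD, at -0.54 and 1.61 at 8 h.

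**Figure D5:**
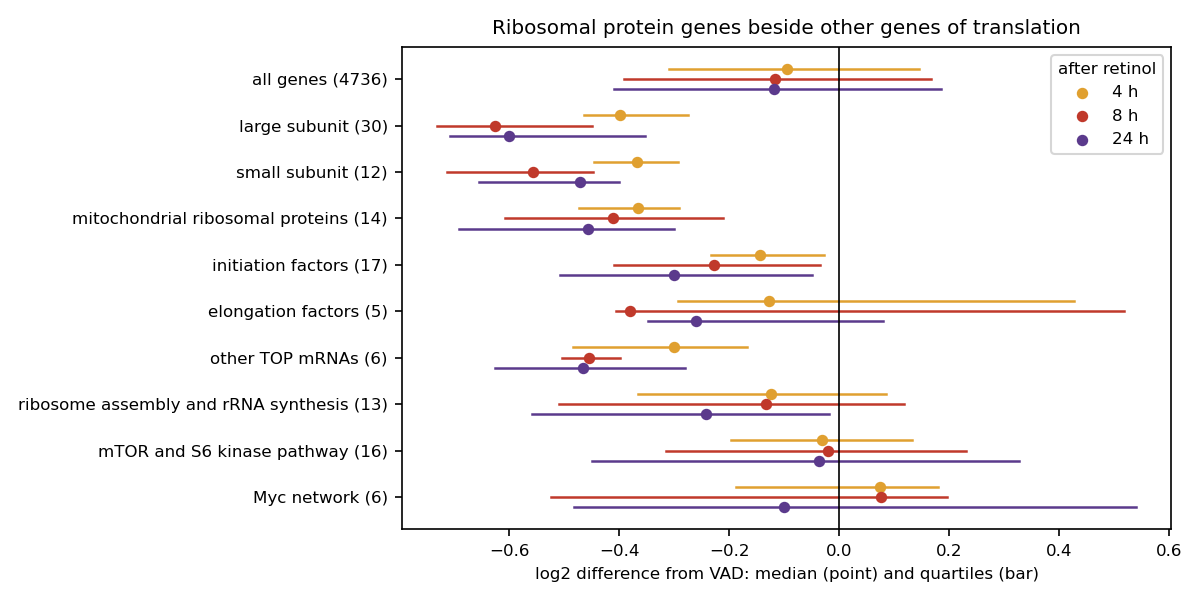
Median (points) and quartiles (bars) of the log2 difference from VAD at 4, 8 and 24 h for all genes, both ribosomal subunits and other gene lists of translation, with the number of genes in brackets. The subunits and the mitochondrial ribosomal proteins lie left of all genes, and the mTOR and Myc lists lie around 0.

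The 16 measured genes of the mTOR and S6 kinase pathway had medians of -0.03, -0.02 and -0.04. Below VAD were 8, 9 and 10 of them, beside 61.1%, 61.5% and 59.9% of all genes. Mtor was at -0.12, -0.02 and -0.43 and the S6 kinase gene Rps6kb1 at 0.12, 0.18 and -0.02. Akt2 was the highest, at 1.03, 1.35 and 1.70, with each of its 2 probe sets above VAD at each time. Pik3r1, a regulatory subunit of the kinase upstream of Akt, was at 0.37, 0.70 and 1.17, and Prkaa2, a catalytic subunit of AMP-activated kinase, at -1.21, -0.39 and -0.55.

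Myc, a transcription factor known to drive ribosomal protein and ribosomal RNA genes, had ratios of 0.986, 0.652, 0.549 and 0.696 and differences of -0.60, -0.84 and -0.50. Its 2 probe sets were each below VAD at each time. Mycn had ratios of 1.03, 0.874, 0.632 and 0.394 and differences of -0.24, -0.71 and -1.39 from 1 probe set. Max, the partner of Myc, was at 0.58, 1.04 and 0.76, with its 2 probe sets above VAD at each time. The 6 genes of this list had medians of 0.07, 0.08 and -0.10. Below VAD were 3, 2 and 3 of them, beside 61.1%, 61.5% and 59.9% of all genes. The kinases of the initiation factor eIF2 were at -0.86, -0.51 and -0.22 (Eif2ak1), -0.59, -0.26 and -0.34 (Eif2ak3) and 0.46, 0.77 and 0.07 (Eif2ak2, whose 2 probe sets lay on opposite sides of VAD at each time).

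In whole testis fewer cells of a type and less RNA per cell cannot be told apart. Markers of cell types had, at 4, 8 and 24 h, medians of 0.75, -0.37 and -0.53 for spermatids (8 of 10 listed genes measured) and 0.61, -0.20 and -0.26 for spermatocytes (7 of 9). The values were 0.20, 0.13 and 0.50 for spermatogonia (4 of 7), 0.09, -0.01 and -0.07 for Sertoli cells (11 of 15) and 0.19, 0.12 and -0.59 for Leydig cells (7 of 9). Within a list markers went both ways. Sertoli markers ran from -0.71 to 1.27 at 8 h and Leydig markers from -1.95 to 1.63 at 24 h. Of the 11 Sertoli markers 4 were at least 1.5-fold higher at 8 h (8.53% of all genes) and 1 was lower by that much (12.3%). Peritubular myoid markers were at -0.25, -0.39 and -0.43 (5 of 5), macrophage markers at -0.04, -0.02 and 0.26 (4 of 6) and endothelial markers at -0.25, 0.06 and 0.07 (4 of 6). At 4 h 7 of 8 spermatid and 7 of 7 spermatocyte markers were above VAD, while 61.1% of all genes were below it. From 4 h to 8 h all 15 were lower, as were 55.7% of all genes. At 4 h and over that step the ribosomal genes were lower in 40 and 39 of 42. The part of these cell types in the ribosomal result was not tested. Because ratios carry no level, the label of the tissue could not be checked against the presence of its markers.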

How the data were processed

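The authors deposited linear ratios per probe set. Per the submitters' processing notes GCOS and MAS5 were used, in a role not described, and biotinylated cRNA was made from 10 micrograms of total RNA per the labels' protocols. What the ratios refer to, how arrays were scaled and whether animals were pooled is not stated. Signals and detection calls were not analysed here, so brightness is unknown and the number of arrays limits the precision.

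Of 8799 probe sets, 59 controls were set aside, 7006 had 1 symbol in the platform annotation and 308 several. Symbols were updated through Entrez IDs (6985 found in RefSeq, GRCr8), and no member's symbol differed. Ratios were put on the log2 scale, averaged per gene and subtracted between arrays. Counts are at 1.5-fold and 2-fold. The design planned protein features, which were not analysed here. The steps were tested on simulated data. Genes named by rule are the 5 lowest and highest of each subunit by the mean of the 3 differences from VAD. The rule also takes stalk genes, symbols ending in l and members with probe sets over 1 apart (none). Of each other list it takes up to 4 members. For some genes under the rule, such as Rpl6, Rpl7a and Rps15, only the differences are given and not the ratios. Other named genes were chosen after their values were seen. Members and lists were chosen with earlier results of these data known. Python 3.11.15, numpy 2.4.6 and pandas 2.3.3 were used.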

Additional observations from a re-analysis of the deposited data

Results flagged for a closer look

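Rpl19l4 was on different sides of the VAD array at different times, at -0.009 at 4 h, 0.36 at 8 h and -0.14 at 24 h. The difference between the times was not tested.

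Signal above the VAD array was also found in probe sets outside the set. A probe set naming Rpl17 and its copies was at 0.28, 0.0061 and 0.13 at 4, 8 and 24 h. A probe set naming Rpl7a together with Rsl1d1 was at 0.19, 0.14 and 0.29. A probe set of the pseudogene Rps2-ps1 was at 0.44, 0.13 and 0.40, while a second probe set of that pseudogene was at -0.11, -0.01 and -0.23.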

How the results depend on the processing

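Median differences and the shares of members at least 1.5-fold lower were recomputed with other choices of processing, and the medians also with probe sets of several symbols added per protein, an alternative chosen after seeing the data. A value was held to be the same when it moved by less than the spread between probe sets of a member, or, for a share, when it stayed within its binomial interval. For the medians 57 of 63 recomputed values were the same, for the shares 51 of 57, and for the difference between the subunits 21 of 21, although 3 of these turned its sign within that spread (probe set of highest mean ratio, 0.06, 0.07 and 0.0038 at 4, 8 and 24 h). These counts do not measure stability. The platform's own symbols could change nothing, as no member's symbol differed, and shares between retinol arrays were 0.0% under every setting. The spread (0.17, 0.21 and 0.21) was larger than the subunit difference itself (-0.03, -0.07 and -0.13), so that count could hardly fail. The binomial interval takes members as independent, and they are not replicates. Scaling on the spike-ins turned the medians at 4 h and 24 h against VAD to 0.16 and 0.14, and moved those at 8 h against VAD to -0.0353, 24 h against 8 h to 0.20 and 24 h against 4 h to -0.0147. The share at least 1.5-fold lower became 4.76% at 8 h and 0.0% at 24 h. Centring on all genes gave 33.3% at 8 h and 28.6% at 24 h, in place of 57.1% and 50%, and ratios taken against 1 in place of the VAD array gave 28.6% at 8 h and 28.6% at 24 h. Without suffixed probe sets (31 genes left) the step from 4 h to 8 h was -0.23. The causes were not tested beyond the alternatives' own construction. No paired analysis was possible because each group has 1 array and the labels carry no replicate numbers, and leaving out a replicate leaves no value.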

Other observations

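Ribosomal RNA itself was read by a few probe sets. The control probe set for 5S ribosomal RNA had ratios of 0.963, 0.664, 0.837 and 0.740 on the VAD, 4 h, 8 h and 24 h arrays, or differences from VAD of -0.54, -0.20 and -0.38. A probe set that names 18S and 45S ribosomal RNA together with Rpl4, B2m and other genes had ratios of 1.07, 0.128, 0.112 and 0.114, differences of -3.06, -3.25 and -3.23. Rpl4's own probe set was at -0.41, -0.63 and -0.70, and which of its transcripts the shared probe set reads is not known here.

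The pseudogene Rps4x-ps9, left out by the rule, had ratios of 1.08, 0.607, 0.527 and 0.514 and differences of -0.84, -1.04 and -1.08. The 2 probe sets that name it together with Rps4x had means of -0.17, -0.24 and -0.11.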
